A study of Mus musculus with 6 samples.

Results

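Axon guidance ligands and receptors were described in mouse bone marrow stroma, as 65 of the 19938 genes measured on expression arrays. They were taken by gene symbol alone, with no filter on their values, but the families were chosen with earlier results of these data known. The 65 genes were 20 semaphorins, 9 plexins, 8 ephrins, 13 Eph receptors, 3 Slits, 4 Robos, 4 netrins and 4 Unc5 receptors. The cells came from primary bone marrow that was dissociated and sorted for the surface enzyme CD73 and against CD45, carried by leukocytes, and Ter119, carried by red cell precursors. CD105, the TGF-beta co-receptor endoglin, divided them into a CD73+CD105+ and a CD73+CD105- population, with 3 arrays for each, and both share the CD73+CD45-Ter119- gate. The labels name 3 biological replicates per population and the design text a sort in triplicate, without saying whether each was a separate animal, so a p-value here measures only how far these samples spread. No strain, age, sex or treatment of the mice was found in the labels. All values are RMA log2 expression values, and every difference is CD73+CD105+ minus CD73+CD105-.

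These families are ligands and receptors that steer growing axons and also guide blood vessels. Semaphorins bind plexins, with neuropilins as co-receptors for most of the secreted class, and ephrins bind Eph receptors where cells touch. Slits bind Robos, and netrins bind Unc5 receptors and Dcc. In marrow and bone, semaphorins and ephrins are known from the coupling of osteoblasts and osteoclasts, and Robo4 from endothelium and blood stem cells.

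Of the 65 genes 3 rose in CD73+CD105+ cells, the plexin gene Plxnd1 (1.64-fold), the semaphorin gene Sema6d (1.59-fold) and the Robo gene Robo4 (1.55-fold). The Eph receptor gene Epha5 fell (1.46-fold), and 61 did not pass. The threshold was a Benjamini-Hochberg adjusted p under 0.05 in limma over all 19938 genes, of which 1.82% passed, 1.35% higher and 0.466% lower. Among the 65 the share was 6.15%. A smaller share of the 65 was dim. Below the receptor gene mark, described below, in both populations lay 12 of the 65, beside 6924 of 19938 over all genes. The part of this in the share that passed was not tested. At an unadjusted p under 0.05 in limma there were 18 of the 65, a larger share than the 3522 of all 19938 genes (17.7%). The median difference of the 65 was -0.0039, beside -0.02 for all genes, with 32 genes above 0 and 33 below. The 3 CD73+CD105+ arrays lay wholly above the CD73+CD105- arrays in 13 of the 65 and wholly below in 11. Over all 19938 genes this held for 2143 (10.7%) and 2577 (12.9%), or 4720 (23.7%) in either direction. These shares were smaller than those among the 65.

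In replicates 2 and 3 alone Plxnd1 was higher by 0.72, Sema6d by 0.62 and Robo4 by 0.53, and Epha5 was at -0.55. The calls changed with the arrays in the fit. Gene by gene, the average of the CD73+CD105+ and CD73+CD105- arrays of replicate 1 nearly equalled that of the remaining 4 arrays. The SD of this gap was 0.0478 over the 65 genes and 0.0423 over all genes, and at least 0.122 over all genes for any other pair of 1 array from each population. No label describes this relation. The reported fit treats the 6 arrays as independent, which this relation goes against, so its p-values may be too small. With a term for replicate 1 in the fit, Plxnd1 and Sema6d passed (adjusted p = 0.0421 and 0.0499) and Robo4 and Epha5 did not (0.0786 and 0.0596), and 0.507% of all genes passed. The fit of replicates 2 and 3 alone, 2 arrays against 2, called 0 of the 65 in limma and 0.145% of all genes. Leaving out CD73+CD105+ replicate 1 gave 0 of the 65 and 0.431% of all genes. Of the CD73+CD105- arrays, leaving out replicate 1 gave 1 of the 65 (0.436% of all genes) and leaving out replicate 2 gave 2 (0.752%).

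**Figure D1:**
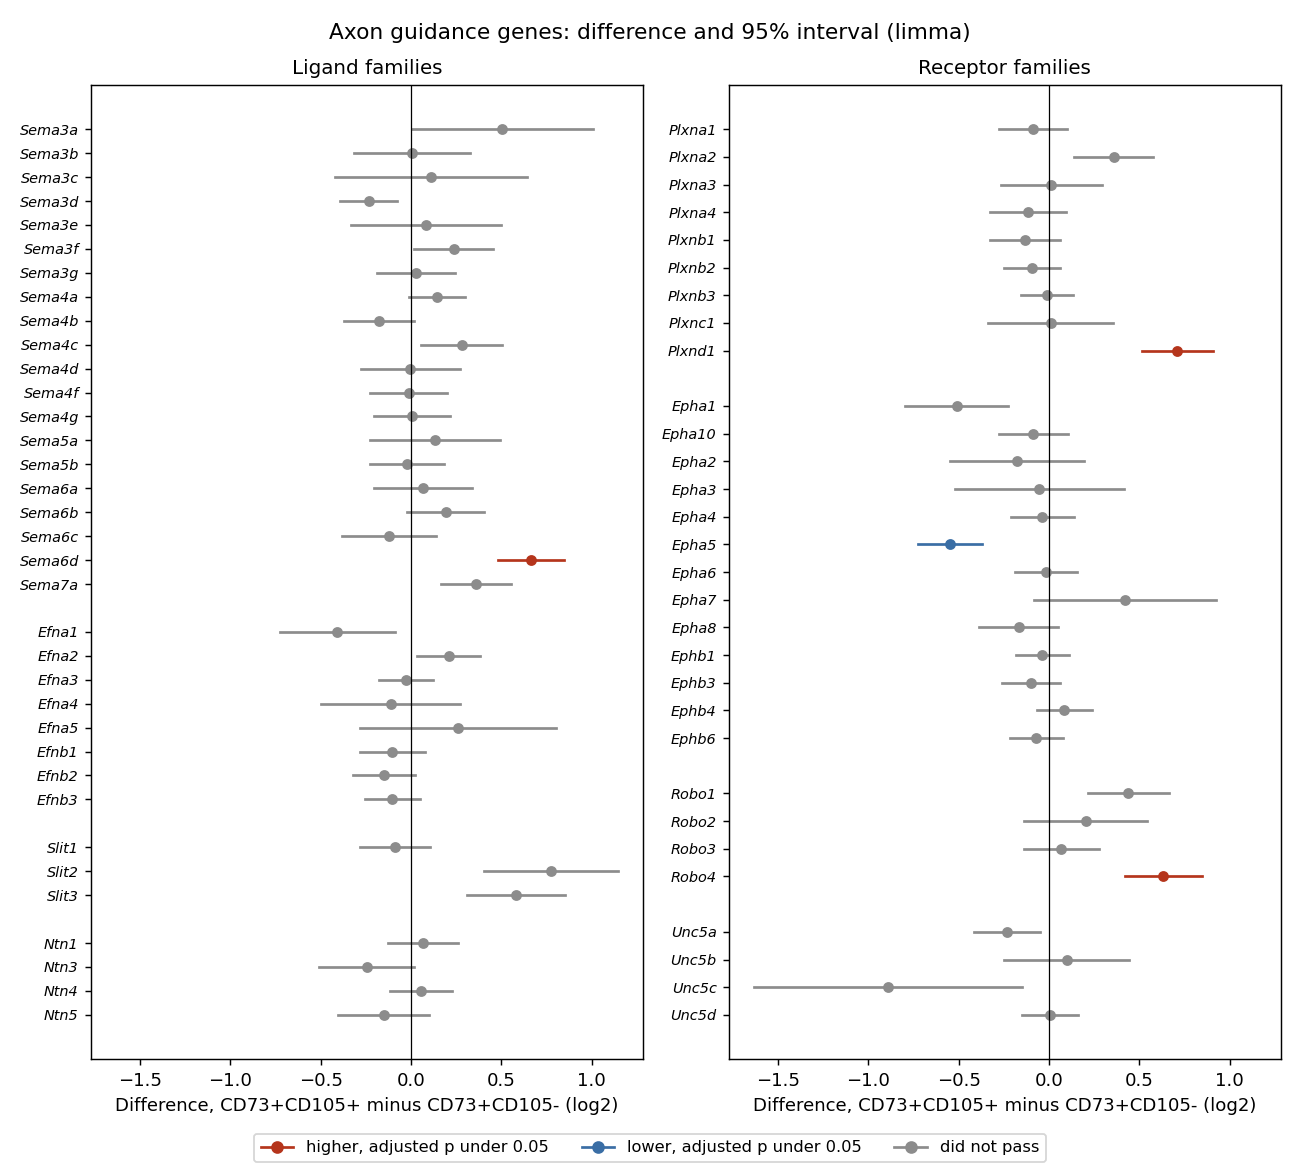
Difference between CD73+CD105+ and CD73+CD105- cells for each of the 65 genes, in log2 units on the horizontal axis, with ligand families on the left and receptor families on the right. Points are limma estimates from 3 arrays per population, bars are 95% intervals of the moderated fit, and colour marks the 3 genes that rose and the 1 that fell.

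The start regions of the 4 genes that passed are shown because the comparison turns on these genes and the windows differ widely in base composition. Each window runs from 250 bases before to 50 bases after the RefSeq gene start (build GRCm38.p6), 5′ to 3′ on the gene's strand, with CpG dinucleotides in capitals. RefSeq gives 2 windows for Sema6d.
Robo4, chr9:37401722-37402021, plus strand: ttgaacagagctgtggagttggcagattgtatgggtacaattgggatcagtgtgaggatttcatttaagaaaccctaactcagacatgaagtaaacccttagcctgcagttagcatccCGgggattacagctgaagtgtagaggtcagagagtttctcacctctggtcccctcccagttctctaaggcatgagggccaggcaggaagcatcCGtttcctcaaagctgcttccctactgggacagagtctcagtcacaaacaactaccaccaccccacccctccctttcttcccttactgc
Plxnd1, chr6:115994956-115995255, minus strand: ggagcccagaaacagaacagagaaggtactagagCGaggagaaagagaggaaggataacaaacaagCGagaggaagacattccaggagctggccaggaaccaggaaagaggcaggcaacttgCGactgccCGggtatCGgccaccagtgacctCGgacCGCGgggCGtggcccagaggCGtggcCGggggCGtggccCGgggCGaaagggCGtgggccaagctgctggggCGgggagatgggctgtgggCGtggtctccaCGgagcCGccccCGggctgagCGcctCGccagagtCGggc
Sema6d, chr2:124089719-124090018, plus strand: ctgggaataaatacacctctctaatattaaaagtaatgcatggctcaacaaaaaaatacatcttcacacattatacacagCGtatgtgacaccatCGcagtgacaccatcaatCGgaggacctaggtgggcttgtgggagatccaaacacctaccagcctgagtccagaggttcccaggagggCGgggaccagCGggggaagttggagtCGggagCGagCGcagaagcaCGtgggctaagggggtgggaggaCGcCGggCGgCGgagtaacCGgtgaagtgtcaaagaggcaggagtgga
Sema6d, chr2:124653331-124653630, plus strand: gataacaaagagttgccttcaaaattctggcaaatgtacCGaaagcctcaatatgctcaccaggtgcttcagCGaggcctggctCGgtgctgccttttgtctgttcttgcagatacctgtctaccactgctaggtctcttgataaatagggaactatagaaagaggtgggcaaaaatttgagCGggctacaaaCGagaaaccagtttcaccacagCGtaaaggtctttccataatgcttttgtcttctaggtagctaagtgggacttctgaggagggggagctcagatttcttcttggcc
Epha5, chr5:84417333-84417632, minus strand: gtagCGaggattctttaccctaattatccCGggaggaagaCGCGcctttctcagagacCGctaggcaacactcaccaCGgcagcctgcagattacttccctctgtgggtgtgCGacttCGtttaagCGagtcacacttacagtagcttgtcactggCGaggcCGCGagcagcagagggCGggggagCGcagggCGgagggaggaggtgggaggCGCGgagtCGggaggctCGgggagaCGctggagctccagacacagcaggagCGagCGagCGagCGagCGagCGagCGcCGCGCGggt

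The Robo4 window held 2 CpG dinucleotides and the Plxnd1 window 23. Those of Sema6d held 14 and 6, and the window of Epha5, the gene that fell, held 30. The median was 18.5 over the 72 windows of the 56 axon guidance genes with an entry, and 7 over all 32851 windows. The median share of G and C bases was 64.2% in the axon guidance windows and 52.7% in all windows. The part of base composition in the motif shares that follow was not tested. On both strands CCGGAA, an ETS core, was found in 8.33% of the axon guidance windows and 14.9% of all windows. The motif AGATAA, bound by factors of the GATA family, was in 4.17% and 11.2%. The AP-1 motif TGANTCA was in 4.17% and 7.81%, and the E-box CACGTG in 6.94% and 7.15%. None of the 5 windows printed above held the first 3 of these motifs. The first Sema6d window held CACGTG, starting 23 bases before the gene start. A match in such a window describes its letters and is not evidence of binding.

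Among the semaphorin ligands 1 of 20 rose and 0 fell. At an unadjusted p under 0.05 in limma there were 6 of the 20, beside 3522 of 19938 over all genes. Sema6d encodes a membrane-bound semaphorin that binds plexin A1. Its level was 8.42, 8.37 and 8.26 on CD73+CD105+ arrays 1, 2 and 3, against 7.67, 7.62 and 7.76 on the CD73+CD105- arrays. The lowest CD73+CD105+ array lay above the highest CD73+CD105- array. The means were 8.35 ± 0.08 and 7.68 ± 0.07 (SD, n = 3 each), a difference of 0.66 (SE 0.08, adjusted p = 0.0112 in limma). The difference was 0.75 in replicate 1 and 0.62 in replicates 2 and 3, where its adjusted p was 0.245. The call was lost when either replicate 1 array was left out (adjusted p = 0.0615 without the CD73+CD105+ array, 0.0608 without the CD73+CD105- array).

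The other class 6 semaphorin genes, Sema6a, Sema6b and Sema6c, differed by 0.07, 0.19 and -0.12. Sema7a, whose membrane-anchored product binds integrin beta 1 and plexin C1, was at 8.45, 8.51 and 8.35 on CD73+CD105+ arrays, against 8.14, 8.14 and 7.95 on CD73+CD105- arrays. Its groups did not overlap, and its difference of 0.36 did not pass (SE 0.08, adjusted p = 0.0834). Sema3a, a secreted repellent that osteoblasts also make, stood at 8.49, 8.30 and 9.03 in CD73+CD105+ cells and 8.22, 7.77 and 8.32 in CD73+CD105- cells. The groups overlapped, with a difference of 0.51 (95% interval 0.00 to 1.01, adjusted p = 0.28), which was 0.30 without CD73+CD105+ replicate 3. Its neighbour on chromosome 5, Sema3d, which encodes another secreted semaphorin, was at 10.22, 10.13 and 10.23 in CD73+CD105+ cells and 10.38, 10.47 and 10.44 in CD73+CD105- cells. Its CD73+CD105+ arrays were all lower, by a small step that did not pass (-0.24, adjusted p = 0.14). Sema3e, the secreted ligand of plexin D1, differed by 0.08 (95% interval -0.33 to 0.50). Sema4c, a membrane-bound ligand of plexin B2, was at 7.35, 7.29 and 7.41 in CD73+CD105+ cells and 7.23, 6.90 and 7.08 in CD73+CD105- cells, without overlap (0.28, adjusted p = 0.199). Sema3f, a secreted ligand that acts through Nrp2, was also higher on every CD73+CD105+ array by a small margin (0.24, adjusted p = 0.253). Sema4d, the ligand of plexin B1, gave overlapping groups and a difference of -0.0039 (95% interval -0.28 to 0.27). The 17 semaphorins other than Sema6d, Sema7a and Sema3a lay between -0.24 and 0.28.

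Plexin receptors were represented by 9 genes, of which Plxnd1 rose and 0 fell. Plxnd1 encodes a receptor of endothelial cells that binds Sema3e. It read 8.04, 7.98 and 7.96 on the CD73+CD105+ arrays 1, 2 and 3, against 7.35, 7.36 and 7.14 on the CD73+CD105- arrays. All 3 CD73+CD105+ arrays were higher than any CD73+CD105- array, and they spanned less than the CD73+CD105- arrays did. The means were 7.99 ± 0.04 and 7.28 ± 0.13 (SD, n = 3 each), a difference of 0.71 (SE 0.08, adjusted p = 0.0114). It was 0.70 in replicate 1 and 0.72 in replicates 2 and 3, where the adjusted p was 0.223. Of the 6 fits that leave out 1 array, 5 kept Plxnd1 past the threshold, and without CD73+CD105+ replicate 1 it did not pass (adjusted p = 0.0615).

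Plxna2, a receptor for secreted and class 6 semaphorins, did not pass (0.36, SE 0.09, adjusted p = 0.111). It was at 7.76, 7.79 and 7.97 in CD73+CD105+ cells and 7.59, 7.35 and 7.51 in CD73+CD105- cells, without overlap. Plxnb1, the receptor of Sema4d, was at 7.59, 7.81 and 7.66 in CD73+CD105+ cells and 7.90, 7.80 and 7.76 in CD73+CD105- cells. These groups overlapped (-0.13, 95% interval -0.33 to 0.06). The other 6 plexins, with Plxna1 among them, lay between -0.12 and 0.01. The interval of Plxna1, a receptor of Sema6d, was -0.28 to 0.10. For 51 of the 61 genes that did not pass, the 95% interval lay within 1.5-fold in either direction. In the other 10 it reached beyond.

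**Figure D2:**
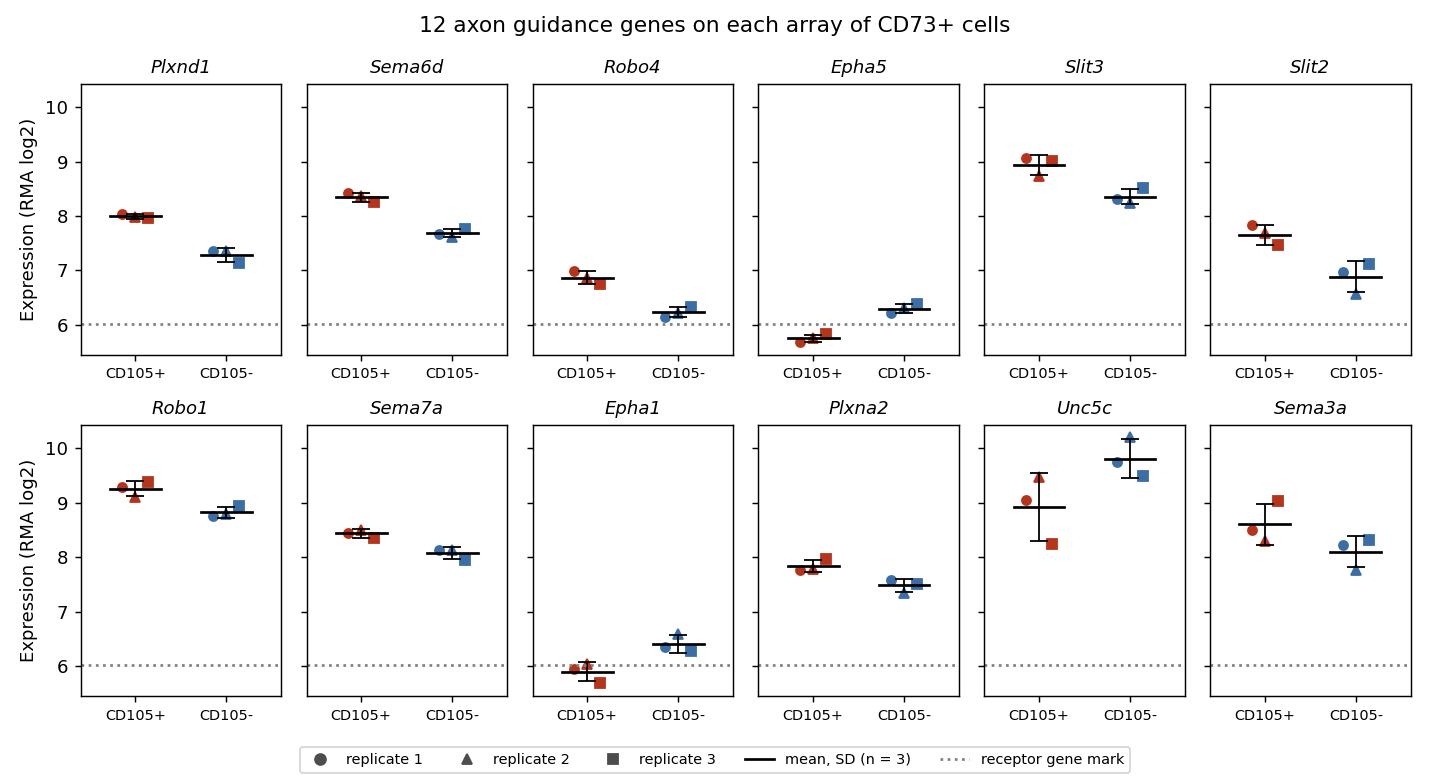
RMA log2 expression of 12 axon guidance genes on each array, CD73+CD105+ (CD105+) on the left of each panel and CD73+CD105- (CD105-) on the right, with bars for the mean and SD of 3 arrays. In Plxnd1, Sema6d, Robo4 and Epha5 the populations are separated, and Epha5 lies below the dotted receptor gene mark on the 3 CD73+CD105+ arrays.

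The Slit ligands gave 2 of the larger differences of the 65, but 0 of 3 passed in limma. An unadjusted p under 0.05 was found for 2 of the 3, beside 3522 of 19938 over all genes. Slit2, a secreted ligand of Robo1 and Robo2, was at 7.82, 7.69 and 7.46 on CD73+CD105+ arrays, against 6.98, 6.57 and 7.11 on CD73+CD105- arrays. The groups did not overlap, with replicate 3 the lowest of the CD73+CD105+ arrays and the highest of the CD73+CD105- arrays. The difference was 0.77 (SE 0.16, 1.71-fold, adjusted p = 0.0625), and it was 0.85 in replicate 1 and 0.74 in replicates 2 and 3. Slit3, its relative, known from vessels and bone, was at 9.07, 8.73 and 9.01 in CD73+CD105+ cells and 8.31, 8.24 and 8.51 in CD73+CD105- cells. These groups were also separated, with a difference of 0.58 (SE 0.12, adjusted p = 0.058). Slit3 passed in 4 of 16 alternatives, with an adjusted p of 0.0403 without CD73+CD105+ replicate 2 and a range of 0.0149 to 0.436 over all 16. Slit1, the third Slit, differed by -0.09 (adjusted p = 0.628).

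Of the 4 Robo receptors 1 rose, and all had differences above 0, beside 8854 of 19938 over all genes. Robo4, the Robo of endothelial cells, was at 6.99, 6.87 and 6.74 on CD73+CD105+ arrays 1, 2 and 3, against 6.14, 6.22 and 6.33 on the CD73+CD105- arrays. The CD73+CD105+ arrays were all higher, and the CD73+CD105- arrays lay close above the receptor gene mark of 6.01 for dim genes, described below. The means were 6.87 ± 0.12 and 6.23 ± 0.10 (SD, n = 3 each), a difference of 0.63 (SE 0.09, adjusted p = 0.0217). It was 0.85 in replicate 1 and 0.53 in replicates 2 and 3 (adjusted p = 0.304). The call was lost without replicate 1 or replicate 2 of either population. The adjusted p was 0.094 and 0.0537 without CD73+CD105+ replicates 1 and 2, and 0.0943 and 0.0766 without CD73+CD105- replicates 1 and 2.

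Robo1, a receptor of Slit2 and Slit3, stood at 9.29, 9.11 and 9.39 in CD73+CD105+ cells and 8.75, 8.79 and 8.93 in CD73+CD105- cells. It did not pass, although the groups did not overlap (0.44, SE 0.10, adjusted p = 0.0737). Robo2, its neighbour on chromosome 16, was at 7.65, 7.58 and 7.95 against 7.62, 7.26 and 7.70 in the same order of populations. Its groups overlapped (0.20, adjusted p = 0.514), and the difference lay between 0.071 and 0.29 when 1 array was left out. On chromosome 9 the neighbours Robo4 and Robo3 also differed in outcome, Robo3 at 0.07 (adjusted p = 0.738). The Robo3 groups overlapped, and its means in both populations lay below the level reached by odorant and pheromone receptor genes, described below.

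Among the Eph receptors 1 of 13 fell and 0 rose, and 11 of the 13 differences lay below 0 beside 11084 of 19938 over all genes. Epha5, a receptor of ephrin-A ligands known from neurons, was at 5.68, 5.75 and 5.82 on CD73+CD105+ arrays 1, 2 and 3, against 6.21, 6.31 and 6.38 on the CD73+CD105- arrays. The CD73+CD105+ arrays were all lower. The means were 5.75 ± 0.07 and 6.30 ± 0.08 (SD, n = 3 each), a difference of -0.55 (SE 0.08, adjusted p = 0.0206). It was -0.53 in replicate 1 and -0.55 in replicates 2 and 3, where the adjusted p was 0.251. Epha5 lost the call when any 1 of the 6 arrays was left out, with an adjusted p between 0.050007 and 0.104.

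Epha5 is a dim gene on these arrays. A receptor gene mark was set at 6.01, the level under which 95% of 1190 odorant and pheromone receptor genes averaged on these arrays. The CD73+CD105+ mean of Epha5 lay below it, where RMA is known to compress differences. Epha1, another EphA receptor, also had its CD73+CD105+ mean below the mark, at 5.94, 6.04 and 5.70 against 6.36, 6.59 and 6.27 on CD73+CD105- arrays. Its difference of -0.51 did not pass (SE 0.12, adjusted p = 0.0911). Of the 65 genes 12 lay below the mark in both populations, 3 in 1 population and 50 in neither. Over all 19938 genes these counts were 6924, 620 and 12394.

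**Figure D3:**
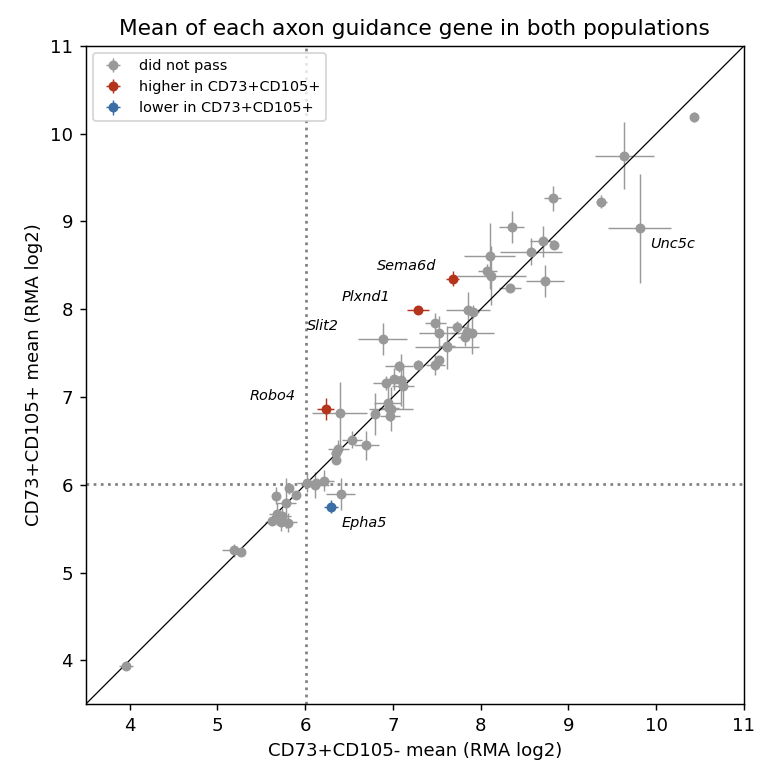
Mean RMA log2 level of each of the 65 genes in CD73+CD105+ cells (vertical axis) and CD73+CD105- cells (horizontal axis), with SD bars from 3 arrays each. The diagonal is equality and the dotted lines are the receptor gene mark of 6.01, with Epha5 below it in CD73+CD105+ cells only.

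Epha7, at 6.84, 6.45 and 7.16 in CD73+CD105+ cells and 6.22, 6.20 and 6.76 in CD73+CD105- cells, ran the other way with overlapping groups (0.42, adjusted p = 0.358). Without CD73+CD105+ replicate 3 its difference was 0.25. The other 10 Eph receptors lay between -0.18 and 0.08. Of the 8 ephrin ligands 0 passed in limma, with 2 at an unadjusted p under 0.05, beside 3522 of 19938 over all genes. Efna1, an ephrin-A of endothelial cells among others, was at 8.43, 8.42 and 8.11 on CD73+CD105+ arrays, against 8.67, 8.55 and 8.97 on CD73+CD105- arrays. Its groups were separated, with a difference of -0.41 (SE 0.14, adjusted p = 0.183). Efna2 lay below the receptor gene mark in both populations, with a difference of 0.21 (adjusted p = 0.209). Efna5 averaged 8.38 ± 0.34 in CD73+CD105+ cells and 8.12 ± 0.39 in CD73+CD105- cells (SD, n = 3 each). Its groups overlapped (0.26, adjusted p = 0.606), and the difference lay between 0.055 and 0.45 when 1 array was left out, the extremes being the fits without replicate 2 of either population. The other 5 ephrins lay between -0.15 and -0.03.

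Ephb4 and Efnb2, the receptor and ligand known from veins and arteries, differed little. The Ephb4 arrays of the populations did not overlap and those of Efnb2 did. Ephb4 averaged 7.37 ± 0.06 in CD73+CD105+ cells and 7.28 ± 0.01 in CD73+CD105- cells (SD, n = 3 each), with a 95% interval of the difference of -0.07 to 0.24. For Efnb2 the means were 9.23 ± 0.08 and 9.37 ± 0.06, with an interval of -0.32 to 0.02. A difference of 1.5-fold lay outside both intervals.

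Netrins and their Unc5 receptors held 0 genes past the threshold in limma. At an unadjusted p under 0.05 there were 0 of 4 and 2 of 4, beside 3522 of 19938 over all genes. Unc5c, a receptor through which netrin repels axons, showed the largest difference of the 65 in size, -0.89 (SE 0.32, 1.85-fold lower), with an adjusted p of 0.209. It was at 9.06, 9.47 and 8.25 on CD73+CD105+ arrays, against 9.74, 10.20 and 9.49 on CD73+CD105- arrays. The groups were separated by a narrow margin, and within each population replicate 2 was highest and replicate 3 lowest. Without CD73+CD105+ replicate 3 the difference was -0.55, smaller than those of Slit2, Plxnd1 and Sema6d, and over all 6 fits that leave out 1 array it lay between -1.16 and -0.55. Unc5b, a receptor that also binds Robo4, was at 7.32, 7.40 and 6.86 in CD73+CD105+ cells and 7.02, 7.21 and 7.05 in CD73+CD105- cells. Its groups overlapped, with CD73+CD105+ replicate 3 the lowest of the 6 arrays (0.10, adjusted p = 0.777). Without that array the difference was 0.27. Unc5a differed by -0.23 below the receptor gene mark (adjusted p = 0.185). Among the netrins, Ntn3 was at -0.25, Ntn5 at -0.15 and Ntn1, the best known of the guidance netrins, at 0.07, with adjusted p-values of 0.313, 0.518 and 0.722.

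**Figure D4:**
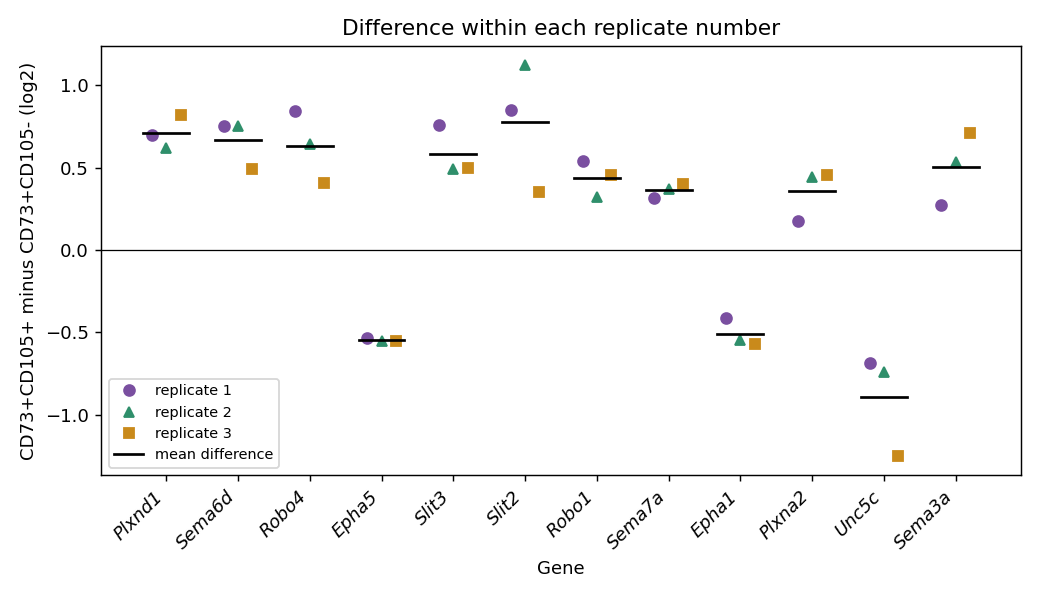
Difference between the CD73+CD105+ and CD73+CD105- array of each replicate number, in log2 units, for the same 12 genes as in the plot by array. Black lines mark the mean difference, the numbers are not taken to pair the samples, and a gene whose groups do not overlap has points of one sign however its arrays are matched.

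Neuropilins, netrin co-receptors and signal transducers of these pathways were represented by 55 of 59 listed genes. None passed in limma (0 higher, 0 lower), with 13 at an unadjusted p under 0.05, beside 3522 of 19938 over all genes. Their median difference was 0.03 beside -0.02 over all genes. Srgap1, a GTPase-activating protein that works below Robo receptors, was at 6.17, 6.21 and 6.79 in CD73+CD105+ cells and 7.11, 6.97 and 7.02 in CD73+CD105- cells (-0.65, SE 0.16, adjusted p = 0.107). Its CD73+CD105+ replicate 3 lay nearest to the CD73+CD105- arrays, and without that array the adjusted p was 0.0137. Its relatives were named after their values were seen. Srgap3 went the other way without overlap (0.57, adjusted p = 0.249), and Srgap2 was at -0.07 (adjusted p = 0.85). Nrp2, a semaphorin co-receptor, was at 8.99, 8.83 and 8.67 on the CD73+CD105+ arrays, against 8.12, 8.24 and 8.40 on the CD73+CD105- arrays (0.58, SE 0.11, adjusted p = 0.053). Its relative Nrp1, named after its values were seen, was at 0.48 (adjusted p = 0.0568).

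Markers of several cell types moved with the genes that rose. Of 11 endothelial markers 10 rose, and the sum of their linear levels ranged from 3284 to 4275 on the CD73+CD105+ arrays, against 642 to 732 on the CD73+CD105- arrays. Both the 10 and the sums include Eng, the gene of CD105, on which the populations were sorted. Of the 11 markers 6 had CD73+CD105- means below the receptor gene mark. These were Pecam1 (5.69), Emcn (4.58), Kdr (5.68), Tek (5.67), Ptprb (5.71) and Esam (5.62). Of 7 reticular stroma markers 6 rose, with sums of 4191 to 5060 in CD73+CD105+ cells and 2020 to 2716 in CD73+CD105- cells. Of 7 pericyte and smooth muscle markers 4 rose, with sums of 2509 to 3149 and 1873 to 2258 in the same order of populations. The pericyte gene Cspg4 went the other way without overlap and did not pass (-0.47, adjusted p = 0.0634). Their part in the differences of Plxnd1, Sema6d and Robo4 was not tested. In bulk samples such as these, fewer cells of a type and less RNA per cell cannot be told apart.

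Of 8 chondrocyte markers 0 passed in limma (5 at an unadjusted p under 0.05, beside 3522 of 19938 over all genes). All 8 markers had differences below 0, beside 11084 of 19938 over all genes. Their sums were 22178 to 28687 in CD73+CD105+ cells, against 28520 to 33768 in CD73+CD105- cells. Of 4 osteoblast markers measured 0 passed in limma (1 at an unadjusted p under 0.05, Sp7, at -0.35). Their sums were 7342 to 10404 in CD73+CD105+ cells and 7575 to 9568 in CD73+CD105- cells. The part of either list in the difference of Epha5 was not tested. Neuron markers held 0 of 7 past the threshold in limma (0 at an unadjusted p under 0.05), and 6 of the 7 lay below the receptor gene mark in both populations, the exception being the tubulin gene Tubb3. Glial markers held 0 of 6 in limma (1 at an unadjusted p under 0.05). In both populations Gfap and Cdh19 lay below the mark, and S100b, Sox10, Mbp and Ngfr lay above it. S100b, which cartilage also makes, was at 9.78 in CD73+CD105+ cells and 10.26 in CD73+CD105- cells. The leukocyte marker Ptprc, the gene of CD45, lay below the mark at 4.70 in CD73+CD105+ cells and 4.71 in CD73+CD105- cells. Of 5 leukocyte markers measured 4 lay below the mark in both populations, the exception being Cd3e, at 6.59 in both. Eng, the gene of CD105, was higher by 1.76 in CD73+CD105+ cells.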

How the data were processed

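Total RNA from 3 CD73+CD105+ and 3 CD73+CD105- samples was biotin-labelled and hybridised to 1 array each, per the labels. The authors deposited RMA output on a log2 scale for each probe set, per the submitters' processing notes. Which software release, probe annotation and genome build they used is not given in the sources used here, and scanner files were not used here. Groups and replicate numbers come from the sample titles.

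There were 35556 probe sets, of which the platform annotation gives 1 gene symbol to 21789, several to 1621 and none to 12146. Where a gene had several probe sets (999 genes), the brightest by its mean across the 6 arrays stood for it, which left 19938 genes. Array medians lay between 6.27 and 6.35. Precision is limited by the 3 arrays per population (median SE of a difference 0.0928). Differences were fitted over all genes without a block by two-sided moderated tests (lmFit and eBayes, limma 3.58.1, R 4.3.3), with Benjamini-Hochberg adjustment and a threshold of 0.05. Intervals are 95% intervals of that fit. The genes and lists were chosen with earlier results of these data known. Genes described singly were those past the threshold and, in each family, the 3 with the largest absolute difference. Other genes are named as neighbours, ligands or receptors of these, or as examples, and were chosen after their values were seen. The fit was tested on simulated data. All 65 genes matched the RefSeq gene table by Entrez ID, and start windows were taken from RefSeq (GRCm38.p6). A protein comparison that had been planned was not run. The alternatives were a replicate block, a term for replicate 1, leaving out arrays, other scalings, other probe set rules, filters on dim genes, array weights and a trended robust spread.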

Additional observations from a re-analysis of the deposited data

How the results depend on the processing

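Of 16 alternatives, 10 gave a count of genes past the threshold within 1.5 times the 4 reported. Beside each count stands the share of all genes that passed in the same fit, which was 1.82% as reported. The term for replicate 1 gave 2 (0.507%), replicates 2 and 3 alone 0 (0.145%) and array weights 9 (6.68%). Leaving out 1 array gave 0 to 3 (0.431% to 1.47%). Among the 55 pathway partners, where 0 passed, quantile normalization again gave 2 (1.95%), genes above the receptor gene mark 1 (3%), genes above the median level 2 (3.22%) and array weights 5 (6.68%), and leaving out 1 array gave 0 to 1. Slit3 also passed quantile normalized again (adjusted p = 0.048) and among genes above the median level (0.0496). In all 16 alternatives Plxnd1, Sema6d, Robo4 and Epha5 kept their direction wherever they were tested, and Epha5 and Robo4 were not among the genes above the median level. The array weights added Slit2, Slit3, Robo1, Sema7a and Epha1. Among the 24 genes chosen by the rule, single differences changed sign for Ntn1 in replicate 1 alone (-0.12), Slit1 in replicates 2 and 3 alone (0.0059), and Unc5b without CD73+CD105+ replicate 2 (-0.0055, in a range up to 0.27 when each array was left out) and in replicates 2 and 3 alone (-0.0032). Over all 65 genes 12 had the opposite sign in replicates 2 and 3 alone, at values between -0.13 and 0.14. Besides Slit1 and Unc5b these were Efna4, Epha3, Epha4, Plxnc1, Sema4d, Sema4f, Sema5a, Sema5b, Sema6a and Sema6c. Differences of Plxnb1, Slit1, Ntn1, Ntn3 and Ntn5, none of which passed, also moved by over 1.5 times when 1 array was left out. The cause was not tested. The median difference of all genes was -0.02 as deposited, -0.01 quantile normalized again and -0.0079 with arrays centred on their medians.

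With the replicate number as a block 3 of the 65 genes passed, Plxnd1, Sema6d and Unc5c (adjusted p = 0.0337, 0.0495 and 0.0457), beside 1.08% of all genes, and 0 of the 55 partners in limma. The labels tie same-numbered samples to no shared animal, batch or day, so the numbers are not taken to pair the samples. Deviations of same-numbered arrays from their group means correlated across genes at 0.0066 for replicate 2 and 0.10 for replicate 3. For CD73+CD105+ replicate 2 with CD73+CD105- replicate 3 the value was -0.37. For CD73+CD105+ replicate 3 with CD73+CD105- replicate 2 it was -0.32. The relation of the replicate 1 arrays constrains all of these values, so they cannot decide whether the numbers pair the samples. The value for replicate 1, -0.88, restates that its 2 arrays average to the mean of the others and says nothing of pairing. Dim genes limit these results: 12 of the 65 lay below the receptor gene mark in both populations, beside 6924 of all 19938 genes.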

Other observations

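Some axon guidance genes varied widely among the arrays of each population. An SD over 0.2 in both populations was found for 9 of the 65 genes (13.8%), beside 8.36% of all genes. These shares were not matched for expression level, and a smaller share of the 65 lay below the receptor gene mark. In 6 of these 9 the replicates stood in the same order in both populations. Efna5, Epha3, Epha7, Sema3a and Sema3c were lowest in replicate 2 and highest in replicate 3, and Unc5c the reverse. Among all genes with such an SD the order was shared by 358 of 1667. The other 3, Efna4, Epha2 and Sema5a, had different orders. These 9 genes were chosen after their values were seen.

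Of the 5 axon guidance genes with several probe sets, Sema4d had the widest gap between them. The probe set used differed by -0.0039 (SE 0.12) and the dimmer one by -0.38 (SE 0.13). The 2 probe sets of Sema6b held the same values on all 6 arrays.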
